A study of Mus musculus with 2 samples.

Results

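The immediate early genes described here are Egr1, Egr2, Egr3, Ier2, Ier3, Ier5, Zfp36, Nr4a1, Dusp1 and Btg2. They are 10 of the 21474 protein-coding genes in the tables. They were chosen by name and not by a limit on their values, but with earlier results of these data known. Each was found by its gene identifier in both libraries. Paired-end sequencing of RNA labelled polyA was done on mouse leukemia stem cells infected with Friend virus. That virus is a retrovirus and gives mice an erythroid leukemia. The labels describe the cells as CD34+, CD133+, Kit+ and Sca1+, from pooled male and female adult mice aged 10 to 12 weeks, and say that the strain used has to carry the sensitive allele of Fv2. There was 1 group, with biological replicates 1 and 2, and nothing was compared between conditions. The labels name separate biosamples but the same donor record for the 2 libraries, so their spread may be partly technical.

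Immediate early genes are transcribed within minutes of a growth factor, cytokine, integrin or stress signal, without any need for newly made protein. Kinase cascades of the ERK and p38 type reach factors such as SRF with its ELK partners and CREB, which are already bound at their promoters. Many of these mRNAs decay fast, through AU-rich words in the 3′ untranslated region (UTR), and several of the proteins switch the response off again. In blood cells EGR factors are known for their part in macrophage choice and stem cell quiescence, and the mRNAs are known to be induced by handling such as cell dissociation and sorting.

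The libraries held 23575315 expected counts (replicate 1) and 22541765 (replicate 2), and globin genes took 10.99% and 22.2% of the TPM, the authors' level corrected for transcript length and library depth. TMM scaling, used for ratios because it sets aside such dominant genes, gave effective sizes of 24018652 and 17023644. Total-count scaling shifted the median log2 ratio of all tested genes from -0.04 to -0.47 and the ratio of TPM shifted it to -0.44, so a ratio here is read against that median. Of the 4 markers used to describe the cells, Kit and Ly6a (Sca1) had at least 1 TPM in both libraries. Cd34 had 1.80 TPM in replicate 1 and 0.27 in replicate 2, and Prom1 (CD133) had 3 counts in replicate 1 and 0 in replicate 2. The 4 summed to 5.12 TPM in replicate 1 and 3.48 TPM in replicate 2. All 12 listed erythroid markers had at least 1 TPM in both libraries, where 41.6% of protein-coding genes did. In bulk RNA, fewer cells of a type and less RNA per cell cannot be told apart. Levels below are TPM with mean ± SD (n = 2), and positions are on mm10.

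All 10 genes had at least 1 TPM in both libraries, against 41.6% of protein-coding genes. Their median level was 36.4 TPM, beside 0.55 TPM for all protein-coding genes and 15.4 TPM for the protein-coding genes detected in both libraries. Together they summed to 592 TPM in replicate 1 and 727 TPM in replicate 2. From high to low the means ran Zfp36, Egr1, Ier2, Ier5, Egr3, Btg2, Dusp1, Ier3, Nr4a1, Egr2. Zfp36, Egr1 and Ier2 had means over 100 TPM, while Dusp1, Ier3, Nr4a1 and Egr2 were under 25 TPM. In 6 of the 9 neighbouring pairs of that order the values of the libraries overlapped, so most neighbours could not be placed apart. The exceptions were Ier2 over Ier5, Ier3 over Nr4a1, and Nr4a1 over Egr2.

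**Figure D1:**
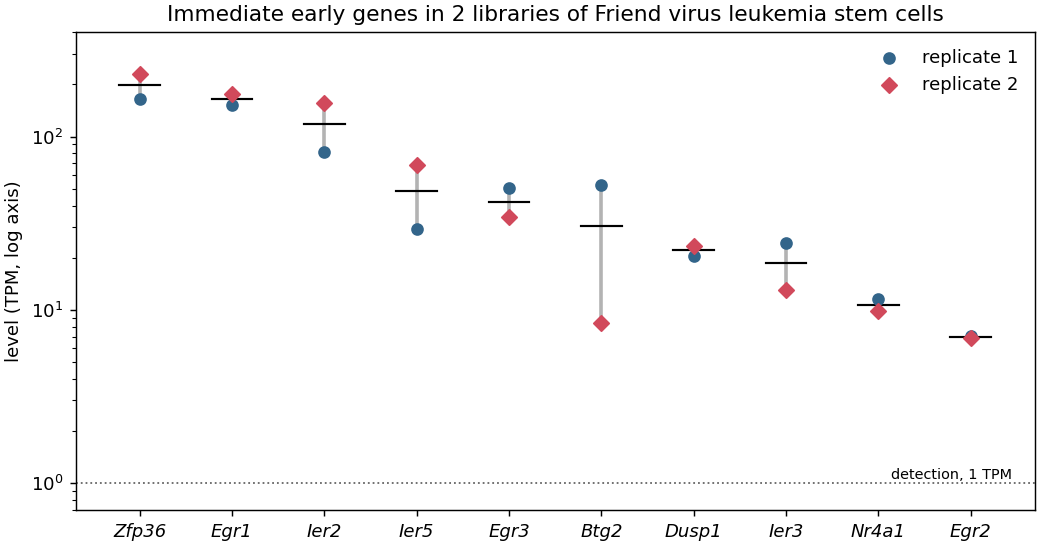
Level of each immediate early gene (TPM, log axis) in replicate 1 and replicate 2, ordered by mean. Zfp36 and Egr1 lead in both libraries, Egr2 is lowest in both, and Btg2 has the widest gap, 52.74 against 8.38 TPM.

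Among the EGR genes, zinc finger transcription factors that bind GC-rich sites, Egr1 carried most of the RNA. Egr1 (ENSMUSG00000038418.7, chromosome 18, 34859823 to 34864984, plus strand) had 151.78 TPM in replicate 1 and 176.26 in replicate 2, a mean of 164 ± 17.3 TPM from 13047 and 15200 counts. It was above 96.1% and 96.9% of protein-coding genes in replicates 1 and 2. Egr1 is the member most often used as a readout of ERK signalling. Egr3 (ENSMUSG00000033730.3, chromosome 14, 70077203 to 70082614, plus strand) had 50.17 TPM in replicate 1 and 34.12 in replicate 2, a mean of 42.1 ± 11.3 TPM. The transcript model behind that TPM, Egr3-201, had 1416 bases and ended at 70079955. The annotated Egr3-204 has 3940 bases, with a 3′ UTR of 2645, so the level of Egr3 rests on a short model. Egr2 (ENSMUSG00000037868.11, chromosome 10, 67535475 to 67542188, plus strand) had 7.03 TPM in replicate 1 and 6.87 in replicate 2, a mean of 6.95 ± 0.113 TPM from 216 and 192 counts. Egr3 and Egr2 are known as targets of antigen receptor signals in lymphocytes, and Egr2 also as a regulator of myelination. The order Egr1, Egr3, Egr2 was the same in both libraries, with no overlap, and Egr1 made up 72.6% of the TPM of the 3 genes in replicate 1 and 81.1% in replicate 2.

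The log2 ratio of replicate 2 over replicate 1 was 0.72 for Egr1 (exact binomial 95% interval 0.68 to 0.75), 0.33 for Egr2 (0.04 to 0.61) and -0.06 for Egr3 (-0.19 to 0.06). These intervals cover counting error only. None of the 3 genes was apart between the libraries, meaning an interval wholly beyond 2-fold. Of the 11708 tested protein-coding genes, 8.84% were apart and higher in replicate 2 and 14.5% apart and higher in replicate 1. The ratio of Egr2 changed sign with the scaling, to -0.10 with total-count scaling and -0.03 as a ratio of TPM. Nab1 and Nab2, corepressors that bind EGR proteins and are known EGR targets, had 34.0 ± 0.728 and 58.2 ± 5.09 TPM. Both were detected, and neither was apart. These are gene totals, and transcripts annotated as retained introns took at least 72.1% of Nab1 in replicate 1. The fourth family gene, Egr4, had 16 and 13 counts and stayed under 1 TPM, at 0.40 in replicate 1 and 0.33 in replicate 2.

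The 7 annotated Egr2 transcripts were split differently in the libraries, but on few counts. Egr2-203 led replicate 1 with 41.76% of the gene's TPM and was put at 0% in replicate 2. Egr2-206 had 32.37% in replicate 1 and led replicate 2 with 67.1%, and Egr2-202 had 0% in replicate 1 and 32.9% in replicate 2. By expected counts Egr2-202 led replicate 2, with 122.27 against 69.73 for Egr2-206. The Egr2-206 model is shorter, with 902 bases against 2864, which raises its TPM per count. The authors' posterior mean shares were less extreme, at 31.7% and 3.92% for Egr2-203. The expected counts behind these shares were at most 146.95 for any of the transcripts, so the split is uncertain. The Egr1 transcript Egr1-201 had 100% of that gene in both libraries, and the table held a single transcript for Egr3.

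The upstream sequence of Egr2 is shown because it holds a CArG box, the element that SRF binds in many immediate early promoters. It is the 250 bases before a transcription start (GRCm38.p6, RefSeq promoter table), with the CArG box in capitals, 72 bases before the start.
Egr2 upstream (chr10:67537619-67537868, plus strand): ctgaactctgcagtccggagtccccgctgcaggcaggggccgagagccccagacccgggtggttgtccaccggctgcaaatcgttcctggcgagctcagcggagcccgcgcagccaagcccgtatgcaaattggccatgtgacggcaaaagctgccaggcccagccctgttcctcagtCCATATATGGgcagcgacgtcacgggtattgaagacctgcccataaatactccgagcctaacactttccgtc
Of the 10 genes, 7 were in that table. A CArG box was found in Egr2 and Zfp36, against 1.63% of all 32851 windows of 300 bases and 1.52% of the 19931 windows of protein-coding genes. All motifs were searched on both strands, and a match describes letters, not binding. The Egr2 gene has 5 windows for its annotated starts, and matches were found in 4 of them.

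Among the regulators of mRNA decay, Zfp36 was the most abundant of the 10 genes. It encodes tristetraprolin, which binds the AU-rich word UAUUUAU in mRNAs and brings in the deadenylase CCR4-NOT, and its own mRNA is one of its targets. Zfp36 (ENSMUSG00000044786.5, chromosome 7, 28376784 to 28380253, minus strand) had 163.83 TPM in replicate 1 and 230.96 in replicate 2, a mean of 197 ± 47.5 TPM from 5371 and 7573 counts. It was above 96.3% and 97.7% of protein-coding genes. The log2 ratio was 0.99 (0.94 to 1.04), an interval that spans 2-fold, so Zfp36 was the nearest gene outside the limit for being apart. An annotated antisense gene, Gm44710, overlaps 1274 bases of it, and whether counting used strand is not stated in the sources used here, so reads of the 2 could not be separated. The transcript model behind its TPM had 1792 bases.

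The 3′ UTR words of Zfp36 are printed since they are of the kind that its own protein binds. Each window has 29 bases of mm10, with TATTTAT in capitals.
Zfp36 3′ UTR (chr7:28376966-28376994, minus strand): agtgggcccttTATTTATgacgactttat
Zfp36 3′ UTR (chr7:28376951-28376979, minus strand): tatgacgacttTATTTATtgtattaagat
Zfp36 3′ UTR (chr7:28376926-28376954, minus strand): agattttatagTATTTATatatattgggt
The 3 words lie 575, 590 and 615 bases after the stop codon, and neighbouring windows overlap. Upstream, Zfp36 had both a CArG box, 58 bases before the RefSeq start, and the EGR word GCGGGGGCG, 105 bases before it. They are shown as windows of 30 bases (GRCm38.p6, RefSeq), match in capitals.
Zfp36 upstream (chr7:28379315-28379344, minus strand): cgagctacgccGCGGGGGCGcgtcccggaa
Zfp36 upstream (chr7:28379267-28379296, minus strand): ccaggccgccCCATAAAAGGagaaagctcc
All 250 bases upstream of that start lie in an annotated exon of Zfp36-201 in GENCODE M21. The EGR words searched were GCGTGGGCG and GCGGGGGCG, held by 3.47% of all windows and 4.86% of those of protein-coding genes, and among the 7 genes in the table they were found in Nr4a1 and Zfp36.

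The relatives of Zfp36 were higher than Zfp36 itself. Zfp36l1 had 653 ± 80.7 TPM and Zfp36l2 592 ± 80.6 TPM, both encoding proteins that bind the same AU-rich words and are known for roles in lymphoid and erythroid progenitors. All 13 CCR4-NOT, PAN and poly(A)-binding genes listed as deadenylase partners were detected, where 41.6% of protein-coding genes were. Pabpc1, the poly(A)-binding protein, had 1498 ± 748 TPM, Cnot3 551 ± 147 TPM and Cnot11 98.9 ± 9.87 TPM. Transcripts annotated as retained introns took at least 46.4% of Cnot3 in replicate 1. Of these 13 genes, 2 were apart and higher in replicate 2 (Pan3 and Pabpc1) and 4 apart and higher in replicate 1 (Cnot1, Cnot2, Cnot6l and Cnot9), where 8.84% and 14.5% of all tested genes were. Pan3 was lower in replicate 2 as TPM, at 15.28 in replicate 1 and 13.79 in replicate 2. Retained-intron transcripts took at least 53.6% of Pan3 in replicate 1. The inflammatory mRNAs that tristetraprolin is best known to bind were scarce. Of 9 such genes, only Tnf was detected in both libraries, at 2.52 ± 0.0778 TPM, and Csf2, Il3, Il6 and Cxcl2 had 0 counts in both.

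Btg2 differed most between the libraries of the 10 genes, and was the only one apart with more in replicate 1. It encodes an antiproliferative protein of the BTG/TOB family that binds the CCR4-NOT deadenylase and is known as a p53 target as well as an immediate early gene. Btg2 (ENSMUSG00000020423.6, chromosome 1, 134075170 to 134079120, minus strand) had 52.74 TPM in replicate 1 and 8.38 in replicate 2, a mean of 30.6 ± 31.4 TPM with an SD as large as the mean. The counts were 2720 and 433. After TMM scaling it was 4.45-fold higher in replicate 1 (log2 ratio -2.15, interval -2.30 to -2.01), and as a ratio of TPM 6.29-fold higher. Of all tested genes, 6.82% had a lower ratio, and 3.42% of the 6939 genes with at least 400 counts. In replicate 1 Btg2 was above 89.6% of protein-coding genes, in replicate 2 above 75.8%.

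Other members of the BTG/TOB family did not share the size of that ratio. Btg1 had 43.95 TPM in replicate 1 and 62.87 in replicate 2, with a log2 ratio of 1.02. Tob1 had 23.51 and 11.70 TPM (log2 ratio -0.51), and Tob2 79.74 and 57.37 TPM (0.03). None of these was apart. The upstream sequence of Btg2 is shown with that of Dusp1 because both hold the full cAMP response element TGACGTCA, the palindrome that CREB factors bind. It is in capitals, 166 bases before the start in Btg2 and 143 in Dusp1 (GRCm38.p6, RefSeq), and the Dusp1 stretch stops where an annotated exon begins.
Btg2 upstream (chr1:134079156-134079405, minus strand): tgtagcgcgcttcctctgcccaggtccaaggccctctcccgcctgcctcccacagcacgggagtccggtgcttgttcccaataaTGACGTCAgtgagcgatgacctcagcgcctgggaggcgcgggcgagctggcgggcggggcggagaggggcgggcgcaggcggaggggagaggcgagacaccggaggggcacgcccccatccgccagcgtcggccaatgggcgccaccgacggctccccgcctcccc
Dusp1 upstream (chr17:26508520-26508722, minus strand): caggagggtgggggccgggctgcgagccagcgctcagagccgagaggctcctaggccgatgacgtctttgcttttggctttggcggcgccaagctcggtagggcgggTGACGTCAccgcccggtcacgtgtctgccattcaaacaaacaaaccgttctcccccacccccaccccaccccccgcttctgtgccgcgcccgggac
TGACGTCA was found in 1.79% of all windows, 2.33% of those of protein-coding genes, and in no other of the 7 genes. Its shorter form TGACG, which lies within it, was in 4 of the 7 genes (Btg2, Dusp1, Egr2 and Nr4a1) and 20.8% of windows (24.3% of those of protein-coding genes). The GC box GGGCGG, which can overlap the EGR word, was in all 7, in 35.7% of windows and in 48.1% of those of protein-coding genes. The genes that shared the full element, Btg2 and Dusp1, had ratios on opposite sides of 0.

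The IER genes, named for their immediate early response, encode unrelated or loosely related proteins. Ier2 and Ier5 encode related nuclear proteins, IER5 being known to act on the heat shock factor HSF1, and IER3 is a membrane and nuclear protein that affects cell survival. Ier2 (ENSMUSG00000053560.4, chromosome 8, 84661331 to 84662852, minus strand) had 81.46 TPM in replicate 1 and 155.68 in replicate 2, a mean of 119 ± 52.5 TPM from 2236 and 4270 counts. Ier5 (ENSMUSG00000056708.5, chromosome 1, 155096361 to 155099636, minus strand) had 29.11 TPM in replicate 1 and 68.32 in replicate 2, a mean of 48.7 ± 27.7 TPM from 1808 and 4253 counts. Ier3 (ENSMUSG00000003541.6, chromosome 17, 35821684 to 35822923, plus strand) had 24.23 TPM in replicate 1 and 13.07 in replicate 2, a mean of 18.7 ± 7.89 TPM. Ier2 and Ier5 were thus high in replicate 2 and Ier3 high in replicate 1.

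The log2 ratio was 1.43 for Ier2 (1.356 to 1.504), 2.69-fold, and 1.73 for Ier5 (1.65 to 1.81), 3.32-fold. Only 6.68% of tested genes had a higher ratio than Ier2 and 3.61% a higher ratio than Ier5. That of Ier3 was -0.40 (-0.62 to -0.18). With total-count scaling Ier2 had a log2 ratio of 1.00 (0.92 to 1.07) and was not apart, while Ier5 was apart at 1.30. Ier5l, a relative of Ier5, had 3.24 TPM in replicate 1 and 4.93 in replicate 2.

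Ier3 had the densest AU-rich words of the 10 genes, at 8.16 AUUUA words per kb of 3′ UTR. Its 4 TATTTAT words, in capitals in windows of 29 bases of mm10, begin 182 to 287 bases after the stop codon in a 3′ UTR of 613 bases, and the first 2 windows overlap.
Ier3 3′ UTR (chr17:35822481-35822509, plus strand): tgtctaattaaTATTTATgtatttatgta
Ier3 3′ UTR (chr17:35822489-35822517, plus strand): taatatttatgTATTTATgtatatcctcc
Ier3 3′ UTR (chr17:35822531-35822559, plus strand): ggtgtatgtaaTATTTATtctaacttatg
Ier3 3′ UTR (chr17:35822586-35822614, plus strand): tgtaacacagaTATTTATtacgatttata
Ier2, in contrast, had no AUUUA in a 3′ UTR of 755 bases, and Ier5 had 2 in 2143 bases.

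Nr4a1 (ENSMUSG00000023034.6, chromosome 15, 101254269 to 101274795, plus strand) encodes the orphan nuclear receptor NUR77, used in reporter mice as a sign of antigen receptor signalling. It had 11.50 TPM in replicate 1 and 9.89 in replicate 2, a mean of 10.7 ± 1.14 TPM from 532 and 458 counts. The log2 ratio was 0.28 (0.10 to 0.46), but -0.15 with total-count scaling and -0.22 as a ratio of TPM. Of its relatives, Nr4a3 had 10.02 and 16.10 TPM and Nr4a2 2.59 and 1.15 TPM. The values of Nr4a3 and Nr4a1 overlapped, and none of the 3 genes was apart.

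Dusp1 encodes a nuclear phosphatase that removes phosphate from p38, JNK and ERK and so ends the signal that induced it. Dusp1 (ENSMUSG00000024190.6, chromosome 17, 26505590 to 26562128, minus strand) had 20.53 TPM in replicate 1 and 23.48 in replicate 2, a mean of 22.01 ± 2.09 TPM from 833 and 1010 counts. The log2 ratio was 0.77 (0.64 to 0.91), and the gene level was not apart. The level of the whole gene, however, joined 3 transcripts. The spliced coding transcript Dusp1-202 had 8.06 TPM in replicate 1 and 0.10 in replicate 2, from 295.63 and 3.80 expected counts. Dusp1-203, annotated as a retained intron, had 12.48 TPM in replicate 1 and 23.30 in replicate 2, from 537.37 and 1005.15 expected counts. The spliced form was thus put at 39.24% of the gene in replicate 1 and 0.44% in replicate 2.

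Retained-intron transcripts together took 60.8% of Dusp1 in replicate 1 and 99.6% in replicate 2. Dusp1 was the only gene of the 10 with such transcripts in the tables. Among 3324 genes with annotated coding and retained-intron transcripts and at least 100 counts in each library, 12.5% were over 50% retained in both libraries, as Dusp1 was. A share at or above that of Dusp1 was found in 12.8% of them in replicate 1 and 0.632% in replicate 2. A difference of 38.8 percentage points or more toward replicate 2 was found in 4.54% of these genes, and one as large toward replicate 1 in 2.47%. Over all these genes the shares differed little. The medians were 3.88% in replicate 1 and 3.24% in replicate 2, and the means 19.3% and 21.3%. The authors' posterior SD of the expected count was 74.5 for Dusp1-202 in replicate 1 and 4.8 in replicate 2.

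The junctions of the retained intron are shown because reads that cross them separate the spliced from the retained form. Intron 2 of Dusp1-202 (chr17:26507205-26507573, 369 bases) stays in Dusp1-203, while introns 1 and 3 are removed in both. Intron bases are in capitals in the first 2 lines, and the third line is the spliced join (mm10, GENCODE M21 transcripts).
Dusp1 exon 2 into intron 2 (chr17:26507559-26507588, minus strand): cctctctacgatcagGTTAGTAGGAGTCCG
Dusp1 intron 2 into exon 3 (chr17:26507190-26507219, minus strand): TTTTTTTGACTTCAGgggggcccagtggag
Dusp1 exon 2 joined to exon 3 (chr17:26507190-26507588, minus strand): cctctctacgatcaggggggcccagtggag
The intron begins with GT and ends with AG. Read from the start codon of Dusp1-202, Dusp1-203 meets a TAG stop inside intron 2 after 207 codons, where the spliced form has 367 codons. On the opposite strand the gene Ergic1, with 497 and 215 counts, overlaps 640 bases of the Dusp1 gene span, and several small annotated pseudogenes or sense-intronic genes lie in that span. The other 8 genes, leaving out Zfp36 and Dusp1, overlap no annotated gene. Other dual-specificity phosphatases were below the whole-gene level of Dusp1, with Dusp2 at 11.7 ± 0.382 TPM, Dusp6 at 9.01 ± 0.269 TPM and Dusp4 at 4.27 ± 0.297 TPM. The spliced form Dusp1-202 alone, at 8.06 TPM in replicate 1 and 0.10 in replicate 2, was not above them as a group. It was below Dusp2 (11.93 and 11.39 TPM) and Dusp6 (9.20 and 8.82 TPM) in both libraries. Dusp4, with 4.06 and 4.48 TPM, was below it in replicate 1 only.

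**Figure D2:**
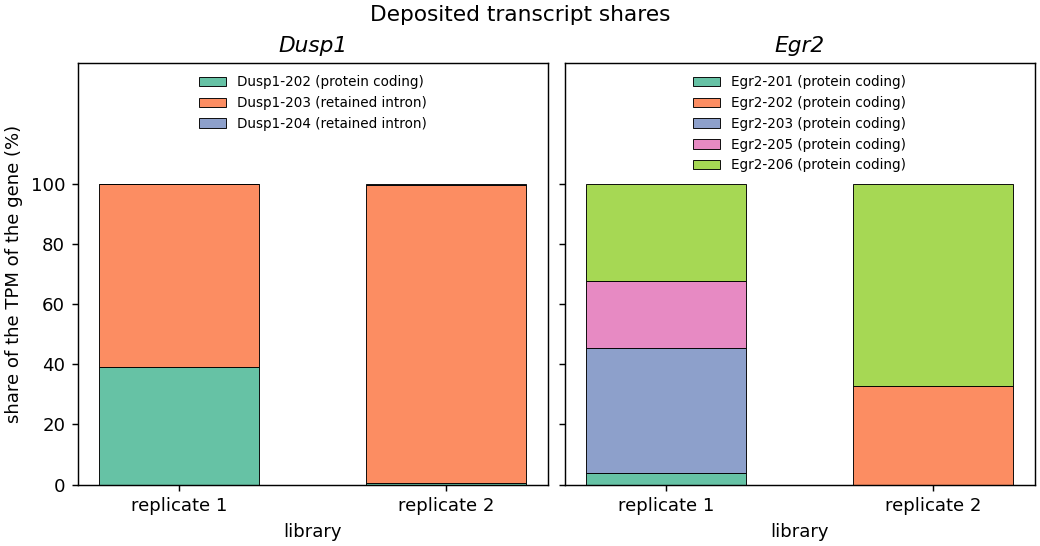
Deposited share (%) of each annotated transcript in the TPM of Dusp1 and Egr2 for replicates 1 and 2, stacked to 100%. The retained-intron form Dusp1-203 takes 60.76% in replicate 1 and 99.24% in replicate 2, and the leading Egr2 transcript differs between the libraries.

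The remaining AU-rich words of the full form were in Dusp1 and Btg2, printed as the same kind of window.
Dusp1 3′ UTR (chr17:26506159-26506187, minus strand): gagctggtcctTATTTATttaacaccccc
Dusp1 3′ UTR (chr17:26505870-26505898, minus strand): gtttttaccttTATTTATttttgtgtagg
Dusp1 3′ UTR (chr17:26505674-26505702, minus strand): gtatgtttgttTATTTATgatctgaagta
Btg2 3′ UTR (chr1:134077249-134077277, minus strand): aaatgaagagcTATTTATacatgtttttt
TATTTAT was thus in the 3′ UTR of 4 of the 10 genes (Ier3, Zfp36, Dusp1 and Btg2), against 28.1% of 8907 detected protein-coding genes with a complete coding transcript. At least 1 AUUUA was in 9 of 10 (66.3% of those genes), and 3 or more were in 7 of 10 (33.9%). The median density was 2.57 per kb of 3′ UTR against 1.11, although the median length of the 3′ UTR, 987 bases, was close to the 1078 of detected genes. Densities ran from 8.16 per kb in Ier3, 5.80 in Dusp1 and 5.52 in Nr4a1 to 0.933 in Ier5 and 0 in Ier2.

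Most of the genes were also compact. Ier2 and Ier5 have 1 exon, the 3 EGR genes, Ier3, Zfp36 and Btg2 have 2, Dusp1 has 4 and Nr4a1 has 8. The median was 2 exons against 9 for detected genes, and 8 of 10 had at most 2 exons against 7.40% of detected genes. The median span was 3710 bases against 19553. Nr4a1 was the exception, with a span of 20527 bases, above that of 51.5% of detected genes. Short genes with few introns are a known property of this class.

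**Figure D3:**
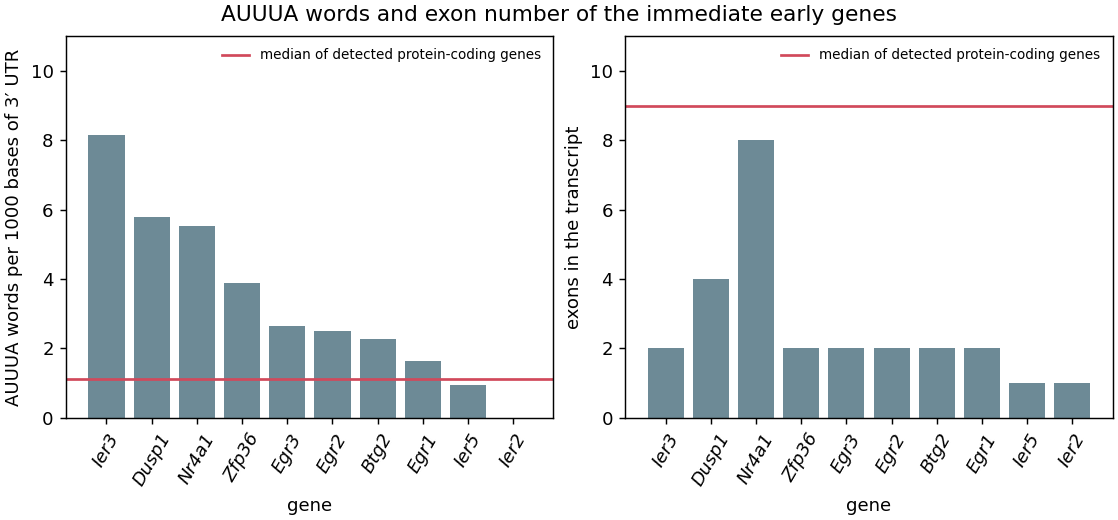
AUUUA words per kb of 3′ UTR and number of exons of each immediate early gene (bars from 0), with the median of detected protein-coding genes as a line. Ier3 has the most words per kb, 8.16, Ier2 has none, and Nr4a1 with 8 exons is the only gene near the median of 9.

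Across the group, 2 of 10 genes were apart and higher in replicate 2 (Ier2 and Ier5), where 8.84% of the 11708 tested genes were, and 1 of 10 was apart and higher in replicate 1 (Btg2), where 14.5% were. Tested genes were those with at least 20 counts over both libraries. With 10 genes, counts of 2 and 1 are near the shares over all genes. The ratios of the group ran from -2.15 to 1.73, with an SD of 1.10 and a median of 0.52, beside a median of -0.04 and an interquartile range of -0.87 to 0.65 over all tested genes. Ratios were above 0 for 7 genes, and for 5 as TPM ratios or with total-count scaling. With total-count scaling the median of the group was 0.09, beside -0.47 for all tested genes. The ratios were thus spread to both sides, with Ier2 and Ier5 at one end and Btg2 at the other.

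**Figure D4:**
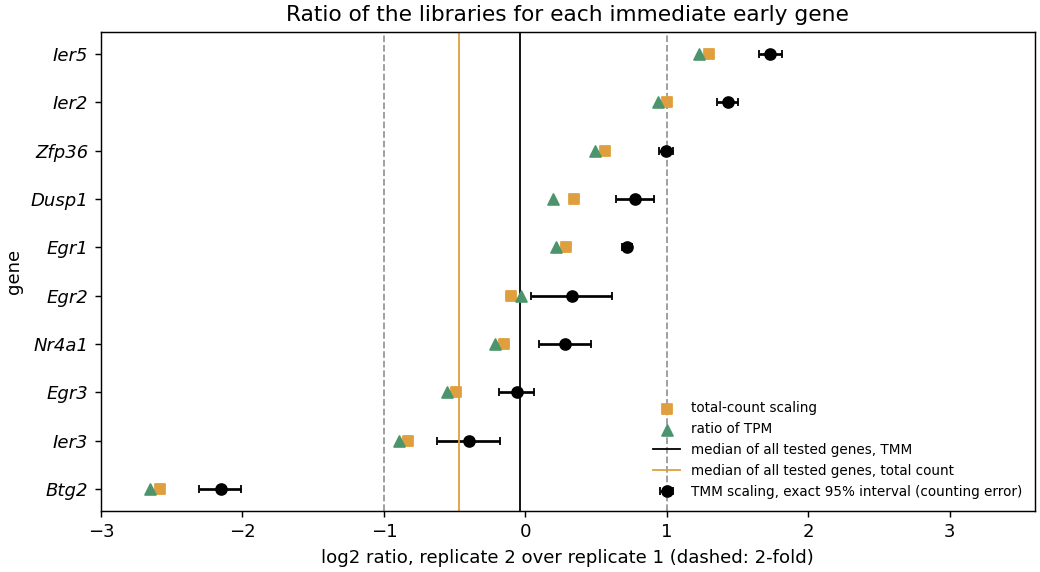
Log2 ratio of replicate 2 over replicate 1 for each immediate early gene, with TMM scaling and its exact 95% interval (counting error), total-count scaling and as a ratio of TPM. Dashed lines mark 2-fold and solid lines the medians of all tested genes. Ier5 and Ier2 lie beyond 2-fold on one side with TMM scaling and Btg2 on the other.

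The number of exons moved with the ratio over all genes, a comparison chosen after the ratios of the group had been seen. Of 11653 tested genes with a complete coding transcript, the 316 genes with 1 exon had a median log2 ratio of 0.48, the 601 with 2 exons 0.11, and the 6039 with 9 or more exons -0.08. Among the 1-exon genes, 19.6% were apart and higher in replicate 2 and 8.86% higher in replicate 1. The ratio of Ier2 lay above 85.4% and that of Ier5 above 91.5% of the 1-exon genes. The count of AUUUA words also moved with it: genes with none had a median of 0.12 and genes with 3 or more -0.13. That count was not divided by the length of the 3′ UTR, so word and length were not separated. The part of exon number or AU-rich words in the ratios of Ier2 and Ier5 was not tested. Among the 2-exon genes the ratio of Btg2 was above 5.82% and that of Zfp36 above 77.7%.

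The kinases and factors upstream of the group were present. All 12 genes of the kinase cascade list were detected, where 41.6% of protein-coding genes were. Map2k2, which encodes an ERK kinase, had 527 ± 170 TPM and Mapk3, which encodes ERK1, 122 ± 16.8 TPM. Map2k1, Map2k2 and Mapkapk2 were apart and higher in replicate 2, where 8.84% of all tested genes were. No gene of the list was apart in the other direction, where 14.5% were. Map2k1 differed less as TPM, at 14.03 in replicate 1 and 17.42 in replicate 2. Its log2 ratio was 0.31 as a ratio of TPM and 1.23 with TMM scaling. Mapkapk2, the p38-activated kinase that acts on tristetraprolin, had 38.21 TPM in replicate 1 and 79.46 in replicate 2. Of 9 promoter factors, 8 were detected, led by Srf at 100.6 ± 5.58 TPM, the SRF coactivator Mrtfa at 44.7 ± 1.499 TPM and Atf1 at 29.7 ± 2.92 TPM. The median log2 ratio was -0.41 for these 9 factors and 0.15 for the 12 kinase genes, and no promoter factor was apart. With total-count scaling these medians were -0.84 and -0.28, beside -0.47 for all tested genes.

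Other immediate early genes also lay on both sides. Of 24 listed, 18 were detected, where 41.6% of protein-coding genes were. Myc had 434 ± 81.7 TPM, Mcl1, a survival protein of the BCL2 family, 422 ± 204 TPM, and Ppp1r15a, which helps to restart translation after stress, 275 ± 119 TPM. Of 23 tested, 8 were apart and higher in replicate 2 (Klf2, Klf4, Gadd45b, Rhob, Nfkbia, Nfkbiz, Trib1 and Mcl1) and 3 higher in replicate 1 (Klf10, Sgk1 and Ccn1), beside 8.84% and 14.5% of all tested genes. Ptgs2 had 0 counts in both libraries. The median ratio of that list was 0.52, the same to 2 decimals as for the 10 genes. The AP-1 genes had a median of 1.71, with 5 of 7 apart and higher in replicate 2 (Fos, Fosb, Jun, Junb and Jund). Fos had 10.80 TPM in replicate 1 and 46.61 in replicate 2, so it differed more than any of the 10 genes in that direction, while Egr1, often induced with Fos, had a log2 ratio of 0.72.

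Heat shock genes, a sign of handling or stress, were mixed. Of 6 listed, Hspa1a and Hspa1b, near-identical copies whose split is uncertain, were apart and higher in replicate 2. Hsp90aa1 and Hspa8 were apart and higher in replicate 1. In these directions 8.84% and 14.5% of all tested genes were apart. Hsph1 and Dnajb1 were not apart, with log2 ratios of 0.28 and 0.32. Hspa8 had 1075.29 TPM in replicate 1 and 160.73 in replicate 2, so the constitutive chaperone was on the same side as Btg2. These are gene totals, and transcripts annotated as retained introns took at least 43.3% of Hspa8 in replicate 1.

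Markers of other cell types also differed between the libraries. Of all protein-coding genes, 41.6% were detected. Of all tested genes, 8.84% were apart and higher in replicate 2 and 14.5% apart and higher in replicate 1. Granulocyte-monocyte markers, 9 of 10 detected, summed to 285 TPM in replicate 1 and 589 in replicate 2. Irf8 alone had 114.88 TPM in replicate 1 and 426.79 in replicate 2, so the higher sum in replicate 2 came through that gene. Its counts were 6095 and 8034, and it was not apart. Its log2 ratio was 0.90 with TMM scaling and 1.89 as a ratio of TPM. Spi1 and Cebpa were apart and higher in replicate 2 and Csf3r in replicate 1, and the median log2 ratio of the list was 0.40, or -0.03 with total-count scaling. Macrophage markers, 7 of 10 detected, summed to 1011 and 1370 TPM, of which the complement gene C1qc had 367.96 and 638.55. Their median log2 ratio was -0.31, with C1qc apart and higher in replicate 2 and Adgre1 and Cd68 in replicate 1. B lineage markers, 7 of 8 detected, summed to 727 and 305 TPM, with a median log2 ratio of -0.46. Cd79a, Ms4a1 and Cd22 were apart and higher in replicate 1. With TMM scaling the ratio was above 0 for 3 of the 8, Pax5 (0.15), Ebf1 (0.47) and Vpreb3 (1.10), none of them apart. Neutrophil markers, 6 of 8 detected, summed to 57.7 and 42.4 TPM, but their median log2 ratio was 0.45. S100a9, Ltf and Mmp9 were apart and higher in replicate 2 and Camp in replicate 1. T and NK markers had 3 of 8 detected (38.1 and 36.6 TPM) and endothelial markers 3 of 7 (222 and 202 TPM). Stromal markers had 3 of 6 (27.3 and 15.01 TPM), and the stromal genes Dcn and Lum were at 0 in both libraries. The detection counts of the T and NK, endothelial and stromal lists were near the share over all protein-coding genes. The 12 erythroid markers summed to 114194 TPM in replicate 1 and 224209 in replicate 2, through the alpha globins, while their median log2 ratio was -0.95. Within the myeloid and B lineage lists, then, single markers lay on both sides, as the immediate early genes did. The part of these cells in the ratios of Ier2, Ier5 and Btg2 was not tested.

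**Figure D5:**
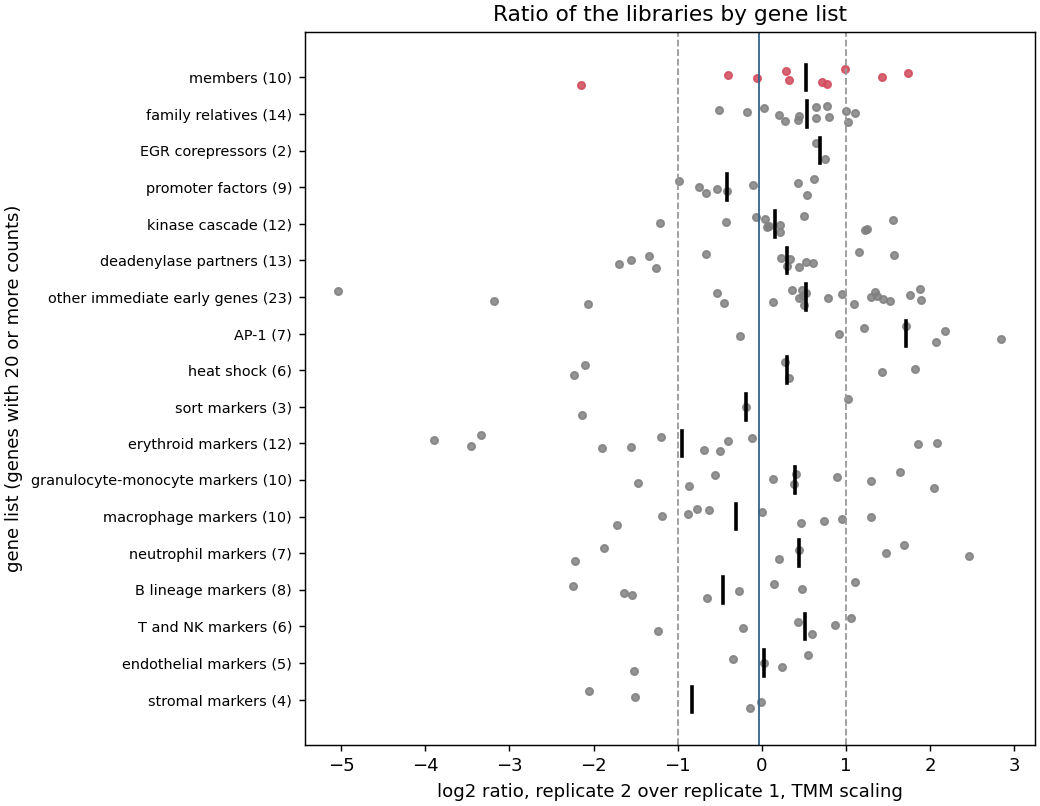
Log2 ratio of replicate 2 over replicate 1 (TMM scaling) for the genes of each list with at least 20 counts, 1 point a gene, with the list median as a bar. The AP-1 genes have the highest median, 1.71, and the erythroid markers the lowest of the lists with 4 or more genes, -0.95.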

How the data were processed

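The authors deposited a gene and a transcript table for each library on mm10 with GENCODE M4 models, per the file headers and the readme. Neither text names the aligner (not given in the sources used here). Deposited expected counts are estimated fragments and need not be whole. Deposited TPM gave levels, and the authors' FPKM and posterior mean TPM were alternatives. Transcript shares are the deposited percent, and the authors' posterior SD of a count has the scale of that signal. Of 69691 rows, 43346 had an Ensembl identifier and 42462 matched GENCODE M21, which gave names and features.

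Counts were rounded and scaled with TMM (edgeR 4.0.16, R 4.3.3); DESeq2 1.42.0 gave other size factors. Log2 ratios used a prior count of 0.5 and exact binomial (Clopper-Pearson) 95% intervals for counting error. With a single group, p-values were not computed. The criterion was tested on simulated data. All 10 genes are named; of other lists, up to 3 most abundant members and cell type markers with 0 counts in both. Egr4, Btg1, Tob1, Ier5l, Dusp2, Dusp4, Dusp6, Nr4a2, Nr4a3, Mapkapk2, Fos, Hspa8, Cd34, Irf8 and the genes listed as apart were named after their values were seen. Ebf1 and Vpreb3 were also named after their values were seen. The genes and lists were chosen with earlier results of these data known. Alternatives were other scalings, minimums, folds and units. Other software was scipy 1.17.1, pandas 2.3.3, matplotlib 3.10.9 and numpy 2.4.6, run in Python 3.11.15.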

Additional observations from a re-analysis of the deposited data

How the results depend on the processing

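None of the 3 genes of the group called apart changed direction at any setting tried. Pan3, called apart among the deadenylase partners (log2 ratio 1.16), was at -0.15 as a ratio of TPM. The median level of the 10 genes moved from 36.4 to 48.8 TPM when TPM was taken over nuclear protein-coding genes without globins, and each library alone gave 28.8 to 39.6 TPM. The median log2 ratio moved from 0.52 to 0.0901 with total-count scaling and 0.0802 as a ratio of TPM, and was 0.55 with DESeq2 size factors. The count of genes apart and higher in replicate 2, 2 in the analysis above, was 1 with total-count scaling (3.16% of all tested genes), 5 at 1.5-fold (18.8%) and 0 at 4-fold (0.641%). Btg2 was apart at each of these settings, and higher in replicate 1. With a minimum of 400 counts, chosen after seeing the data, the counts stayed at 2 and 1 (10.4% and 12.6% of genes). Of all genes apart, 37.9% were higher in replicate 2 with TMM scaling, 40.4% with DESeq2 size factors and 12.0% with total-count scaling. The posterior mean shares put retained-intron forms at 60.7% and 99.1% of Dusp1. Leaving out a library gives no ratio. No paired analysis was possible because there is a single group. Depth limits Egr2, with 192 counts in replicate 2, and the spliced Dusp1 form, with 3.80.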
